A study of Sus scrofa with 19 samples.

Results

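REG3G and DEFB1 encode secreted antimicrobial proteins of epithelial surfaces, and they are described here in the uterine lining (endometrium) of young female pigs (gilts, Sus scrofa). They were chosen by their array values, which were low in hormone-infused horns against control gilts while other mucosal defence genes were high, so their differences from control gilts are given as descriptions, without a test. The array design names them through RefSeq accessions. REG3G has 1 probe (NM_001144847). The symbol DEFB1 stands for 2 gene records in the RefSeq table of Sscrofa11.1, each with 1 probe. The record with the synonym PBD-2 (NM_214442, gene 404699) and the record with the synonyms PBD-1 and PBD1 (NM_213838, gene 396819) are therefore kept apart and called PBD-2 and PBD-1. These are 3 of the 3128 genes to which the array gives a symbol by this route.

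All animals were crossbred gilts aged 8 months whose uterine horns had both been cannulated by surgery on days 8 to 9 of the cycle. Over 24 h on days 11 to 12 after oestrus began, every horn was infused at intervals of 4 h, each time with 5 mL of saline holding 1% ethanol as the vehicle. In 6 treated gilts the vehicle given to one horn also carried prostaglandin E2 (PGE2, 200 µg per infusion) and estradiol (E2, 33.3 µg per infusion). The other horn of those animals received vehicle alone and is called the placebo horn. The 4 control gilts received vehicle in both horns. The arrays comprise 6 hormone horns, 5 placebo horns of the same animals and 8 control horns, of which 4 carry the mark L and 4 the mark P, letters that the labels do not explain. All 5 placebo horns are marked L and the hormone horns of the same 5 gilts are marked P, so hormone and horn mark cannot be told apart within treated gilts. Gilt 40 is represented only by a hormone horn, marked L. A control gilt had undergone the same surgery and infusions, and no untouched endometrium was analysed here. The samples were whole endometrium, in which fewer cells of a type and less RNA per cell cannot be told apart.

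REG3G is a C-type lectin that is secreted onto mucosal surfaces, binds the peptidoglycan of Gram-positive bacteria and kills them. It is best studied in the intestine, where IL-22 acting through STAT3, and Toll-like receptors acting through MYD88, raise its expression in epithelial cells. Beta-defensins are small cationic peptides held together by disulfide bonds that permeabilise microbial membranes and attract immune cells. In many epithelia some beta-defensins are made constitutively and others are induced by microbial products and interleukins. In the uterus, such effectors are among the defences against bacteria that enter at mating and after farrowing.

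Of the 43803 spots on an array that were not controls, 79.1% to 88.4% were well above background, and the 75th percentile of signal ran from 597, in the hormone-infused horn of gilt 36, to 983. All 3 probes were well above background on all 19 arrays, and none was saturated. Levels are log2 of the processed signal relative to that 75th percentile, so 0 marks the brightness of the percentile and 1 unit is a doubling. Levels of different probes are not comparable with each other.

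REG3G lay near the 75th percentile of the array in the control horns. The horns marked L stood at 1.30, 0.19, 1.55 and -0.16 in gilts 9, 14, 28 and 46, a mean of 0.72 ± 0.83 (SD, n = 4). The horns marked P of the same gilts stood at -0.020, 0.082, 0.11 and 0.75, a mean of 0.23 ± 0.35 (SD, n = 4). The processed signal of all 8 horns lay between 739 and 2323. In the placebo horns of gilts 36, 38, 41, 44 and 47 the REG3G level was -0.07, -0.60, -1.85, -3.37 and -5.35, a mean of -2.25 ± 2.15 (SD, n = 5). The placebo horn of gilt 36 was thus within the control range, the other 4 were below it, and the signals ran from 937 down to 17.5. In the hormone horns of gilts 36, 38, 40, 41, 44 and 47 the level was -2.41, -1.95, -3.48, -2.48, -3.79 and -5.18, a mean of -3.22 ± 1.19 (SD, n = 6). Every hormone horn lay below every control horn, with signals of 24.1 to 244. Both horns of gilt 47 were the lowest of their groups.

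The PBD-2 record of DEFB1 was bright in control horns. Its level in gilts 9, 14, 28 and 46 was 5.74, 5.35, 6.47 and 3.98 in the horns marked L (5.39 ± 1.04, SD, n = 4) and 4.77, 5.60, 5.74 and 4.60 in the horns marked P (5.18 ± 0.58, SD, n = 4). The signals of these horns ran from 13732 to 70408. The placebo horns of gilts 36, 38, 41, 44 and 47 had levels of 3.84, 4.47, 4.38, 5.65 and 1.76, a mean of 4.02 ± 1.43 (SD, n = 5). These overlapped with the control horns, except in gilts 36 and 47, which lay below all of them. The hormone horns of gilts 36, 38, 40, 41, 44 and 47 had 3.27, 1.75, 2.24, 3.09, 3.44 and 1.12, a mean of 2.48 ± 0.93 (SD, n = 6). None of these 6 reached the lowest control horn, and gilt 47 was again the lowest.

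The PBD-1 record of DEFB1 overlapped between all groups. Its level in gilts 9, 14, 28 and 46 was -0.94, -0.50, -0.99 and 0.12 in the horns marked L (-0.58 ± 0.52, SD, n = 4) and -1.51, 0.28, -1.10 and 0.80 in the horns marked P (-0.38 ± 1.10, SD, n = 4). The placebo horns of gilts 36, 38, 41, 44 and 47 had 0.66, -1.76, -1.46, -1.17 and -2.69, a mean of -1.28 ± 1.23 (SD, n = 5). The hormone horns of gilts 36, 38, 40, 41, 44 and 47 had -0.14, -2.19, -3.02, -2.65, -1.40 and -2.21, a mean of -1.93 ± 1.03 (SD, n = 6). Of the hormone horns, 4 lay below all control horns, whereas those of gilts 36 and 44 lay within the control range. Gilt 36 had the highest level of its group in both horns. The order of the group means was the same for the 3 genes, with control horns highest, placebo horns between and hormone horns lowest. Neighbours in that order differed by less than the SD of the placebo horns for PBD-1 in both steps, for REG3G between placebo and hormone horns, and for PBD-2 between control and placebo horns. The horns marked L and P of control gilts differed by less than the SD of the horns marked L for each of the 3 genes.

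**Figure D1:**
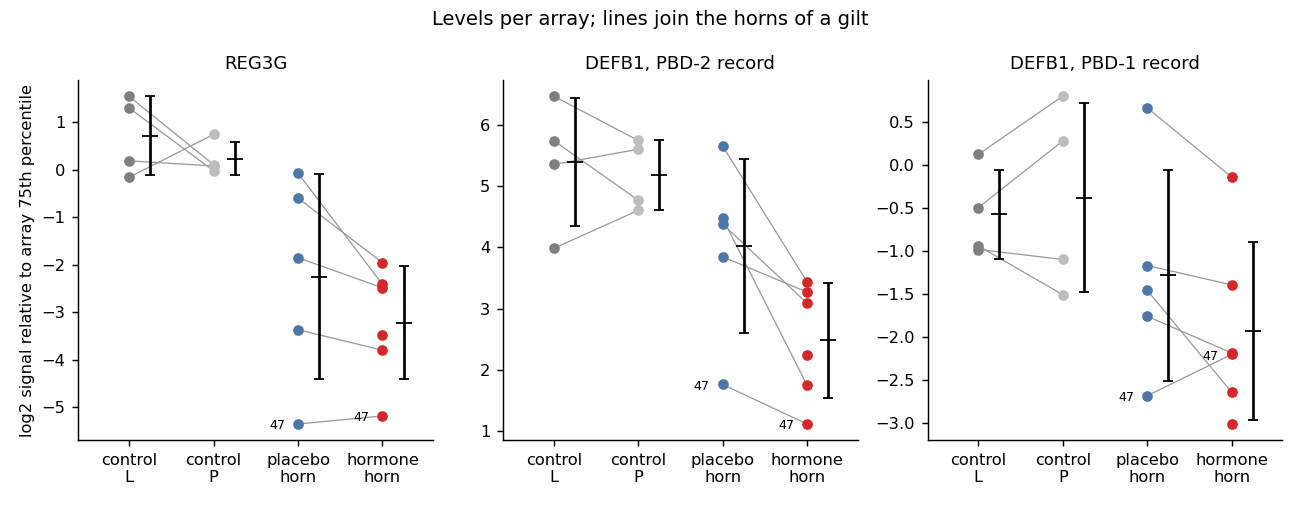
Level of REG3G, PBD-2 and PBD-1 on each of the 19 arrays, as log2 signal relative to the array's 75th percentile (y axis; each panel has its own scale), for control horns marked L and P, placebo horns and hormone horns. Points are arrays, grey lines join the horns of a gilt, bars are mean ± SD, and gilt 47 is numbered. All hormone horns lie below all control horns for REG3G and PBD-2, and the groups overlap for PBD-1.

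Set against the mean of 4 control gilts, the hormone horns had 12.9-fold lower REG3G, with a log2 difference of -3.69 ± 0.69 (SE, 6 hormone horns and 8 control horns). Some of these REG3G signals were dim, at 24.1, 56 and 80.8 in gilts 47, 44 and 40, beside local backgrounds of 30, 48 and 44. With another background correction, normexp on median signals, the REG3G difference was -2.88. PBD-2 was 6.97-fold lower (-2.80 ± 0.55) and PBD-1 2.74-fold lower (-1.45 ± 0.51). The means of the control gilts, with both horns of a gilt averaged, were 0.48 ± 0.32 for REG3G, 5.28 ± 0.75 for PBD-2 and -0.48 ± 0.80 for PBD-1 (SD, n = 4 gilts). The hormone horns did not overlap with the control horns for 2 of the 3 genes. In the whole table this held for 3.07% of probes, and since the genes were picked for this contrast nothing is read from the count. Among 3015 genes with a symbol, REG3G, PBD-2 and PBD-1 ranked 3, 6 and 29 from the largest fall. The median difference of these 3015 genes was 0.17. In the same fit 11.6% of all probes passed (limma, adjusted p under 0.05), 6.72% as higher and 4.93% as lower.

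The means of the 3 genes were also lower in placebo horns, which had received no hormone themselves, than in control gilts. REG3G differed from control gilts by -2.75 ± 0.71 (SE; 6.73-fold), PBD-2 by -1.29 ± 0.56 (2.44-fold) and PBD-1 by -0.92 ± 0.52 (1.89-fold), over 5 placebo and 8 control horns. In none of the 3 genes did all placebo horns lie below all control horns, against 2.89% of probes in the whole table. In this contrast 4.42% of probes passed (limma), 2.46% as higher and 1.96% as lower. This comparison and the previous one share all control arrays, and 5 of the 6 treated gilts enter both. Without gilt 47 the difference in placebo horns was -2.02 for REG3G, -0.75 for PBD-2 and -0.58 for PBD-1, and in hormone horns it was -3.30, -2.53 and -1.40.

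The arrays had been scanned on 3 days, each of which held treated and control gilts. Within day 1, 2 and 3 the REG3G difference of hormone horns from control gilts was -3.75, -3.47 and -3.86. The values of PBD-2 were -1.90, -3.13 and -2.86. For PBD-1 they were 0.46, -2.26 and -2.66, so the sign of PBD-1 turned on day 1, which held control gilt 9 and treated gilts 36 and 44. In placebo horns the within-day values were -2.36, -2.66 and -3.27 for REG3G, -0.51, -1.69 and -1.18 for PBD-2, and 0.97, -1.01 and -2.69 for PBD-1. The values of REG3G and PBD-2 were thus below 0 on each scan day in both kinds of horn. For PBD-2 in placebo horns the SE was 0.71 on day 1 and 1.23 on day 3, larger than the differences themselves. The days held 1 or 2 control gilts each, and day 2 held a single placebo horn, that of gilt 41. With slide in place of gilt as the random block, the PBD-1 difference shrank to -0.63 in hormone and -0.065 in placebo horns. A single slide held a control and a treated animal, gilts 9 and 36, and on it PBD-1 had a mean of -1.23 in the control horns, 0.66 in the placebo horn and -0.14 in the hormone horn. On the same slide REG3G stood at 0.64, -0.07 and -2.41, and PBD-2 at 5.26, 3.84 and 3.27.

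The direct comparison between hormone and placebo horns asks what the infusion of PGE2 and E2 added within the same animal. PBD-2 had the lower level in the hormone horn in all 5 gilts that have both horns, with differences of -0.58, -2.72, -1.29, -2.22 and -0.65 in gilts 36, 38, 41, 44 and 47. A lower level in all 5 gilts was found for 2.42% of all probes. REG3G had differences of -2.34, -1.36, -0.63, -0.43 and 0.17 in the same gilts, lower in 4 of 5. PBD-1 had -0.81, -0.43, -1.19, -0.23 and 0.48, also lower in 4 of 5, where at least 4 of 5 was found for 15.0% of probes. Gilt 47 was the exception for both REG3G and PBD-1. Its REG3G signals were dim, at 17.5 in the placebo and 24.1 in the hormone horn, beside local backgrounds of 37 and 30. The sign of its REG3G difference is therefore uncertain. For the smooth muscle markers DES and CNN1, medians are in log2 units above the control mean. In gilts 36, 38, 41, 44 and 47 they were -0.58, -0.42, 0.018, -1.06 and -0.51 in placebo horns. In hormone horns they were 1.35, -0.17, 0.53, 0.41 and -0.13, higher in each gilt. Neither gene passed between these horns (limma adjusted p = 0.616 and 0.414). The part of muscle content in the horn differences was not tested.

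In the fit, which also draws on the unpaired hormone horn of gilt 40, PBD-2 differed between hormone and placebo horns by -1.51 ± 0.38 (SE; limma adjusted p = 0.21, 95% interval -2.32 to -0.71, before adjustment for the number of probes). REG3G differed by -0.94 ± 0.48 (adjusted p = 0.526, interval -1.96 to 0.072) and PBD-1 by -0.53 ± 0.36 (adjusted p = 0.6, interval -1.28 to 0.22). None of the 3 genes passed over all probes, of which 0.00256% passed, a single probe (3877 at an unadjusted p under 0.05). The hormone arrays in this contrast had also entered the choice of the genes. By size, PBD-2 ranked 2 among the falls of the 3015 named genes, REG3G 18 and PBD-1 74.

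Control gilts show how far the horns of an animal that received vehicle on both sides can differ. Here the horn marked P minus the horn marked L was -1.32, -0.11, -1.43 and 0.90 for REG3G in gilts 9, 14, 28 and 46. For PBD-2 it was -0.97, 0.25, -0.72 and 0.62, and for PBD-1 -0.57, 0.78, -0.12 and 0.68. The direction was not the same in all 4 gilts for any of the genes. The samples of gilt 9 differed in their smooth muscle marker median, at -1.05 in the L and 2.56 in the P horn. Its P horn also had the lowest epithelial marker median of the control horns, -0.58 on the same scale. The part of tissue content in these horn differences was not tested. In the fit the P horn differed by -0.49 ± 0.55 for REG3G (limma adjusted p = 1, interval -1.65 to 0.67), by -0.21 ± 0.44 for PBD-2 (interval -1.13 to 0.71) and by 0.19 ± 0.41 for PBD-1 (interval -0.66 to 1.05). With limma 0% of probes passed in this contrast (0 of 39092, with 935 at an unadjusted p under 0.05).

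Set against the difference between the horns of control gilts, the mean horn difference of treated gilts was lower by 1.28 for PBD-2, with -1.49 ± 0.95 (SD, n = 5) in treated and -0.21 ± 0.76 (SD, n = 4) in control gilts. The exact permutation test over gilts gave p = 0.0952 for PBD-2 (two-sided, 126 splits, 0.262 adjusted over the 3 genes). For REG3G the horn difference was -0.92 ± 0.96 in treated and -0.49 ± 1.11 in control gilts (exact permutation p = 0.563, adjusted 0.563). For PBD-1 it was -0.43 ± 0.63 in treated and 0.19 ± 0.65 in control gilts (exact permutation p = 0.175, adjusted 0.262). The smallest p these splits allow is 0.00794. The hormone and control arrays in this test had also entered the choice of the genes, so its p-values are not independent of that choice. None of the horn differences in treated gilts therefore exceeded that between vehicle horns of control gilts at the 0.05 level. The difference between the horn differences of treated and control gilts was -0.43 for REG3G and turned to 0.037 without gilt 46.

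**Figure D2:**
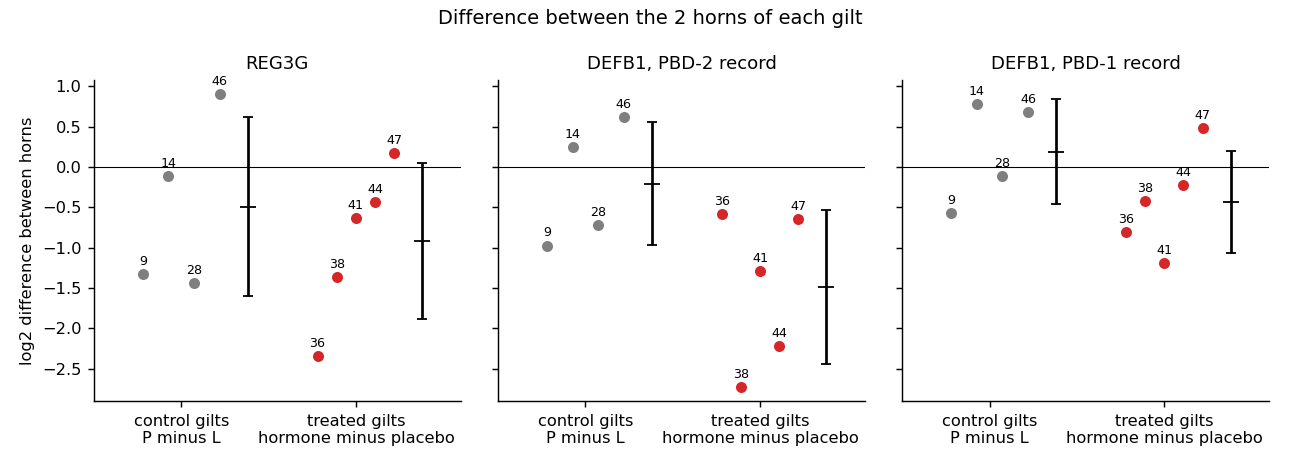
Difference between the horns of each gilt in log2 units (y axis), as P minus L in 4 control gilts (grey) and hormone minus placebo in 5 treated gilts (red), with gilt numbers. Bars are mean ± SD. PBD-2 is below 0 in all 5 treated gilts, while control gilts lie on both sides of 0 for each gene.

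The 32 other antimicrobial effectors that were measured, of 65 listed, went the other way or did not pass. In hormone horns 10 of 32 rose and 0 fell (limma, adjusted p under 0.05 over all probes), with a list median of 0.39. Over all named genes 12.7% rose and 2.45% fell, and their median was 0.17. High values of other mucosal defence genes in this contrast were part of the choice of REG3G and DEFB1. The rises in hormone horns are therefore a description of that pattern and no separate evidence for it. The largest rises were in the calgranulins S100A8 and S100A9, calcium-binding proteins that sequester metal ions from microbes (6.41 ± 1.15, adjusted p = 0.00361, and 5.65 ± 1.06, adjusted p = 0.00449). Their relative S100A12 rose by 4.79 (adjusted p = 0.00916). DMBT1, a mucosal glycoprotein that binds bacteria, rose by 5.43 ± 0.59 (adjusted p = 0.00051). SAA3, an acute phase gene, rose by 5.33 (adjusted p = 0.00417).

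Lysozyme (LYZ), which cleaves peptidoglycan, rose by 2.54 (adjusted p = 0.0106), and the chitinase-like protein CHI3L1 by 4.14 (adjusted p = 0.0113). The protease inhibitor SLPI rose by 2.43 (adjusted p = 0.0185), the siderophore-binding LCN2 by 2.39 (adjusted p = 0.0355) and the peptidoglycan recognition protein PGLYRP3 by 0.77 (adjusted p = 0.0209). The calgranulins, DMBT1, SAA3, LYZ and CHI3L1 passed whichever of the 10 gilts was left out. LCN2 passed in 4 of these 10 fits (not without gilt 9, 14, 28, 40, 44 or 46), SLPI in 7 (not without 9, 14 or 28) and PGLYRP3 in 8 (not without 9 or 28). Within scan days 1, 2 and 3, 0, 5 and 0 of the 32 passed as higher, with 1 or 2 control gilts per day.

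Among the listed effectors that did not pass in hormone horns, PGLYRP1, a bactericidal peptidoglycan recognition protein stored in neutrophil granules, had the lowest difference at -1.39 ± 0.55 (adjusted p = 0.105). The collectin SFTPD stood at -0.75 and the ribonuclease ANG at -0.46. REG4, the other REG family gene with a value, stood at -0.30 (adjusted p = 0.59). The other beta-defensins on the list with a value were DEFB129 at 0.075 and DEFB125 at 0.49, the latter well above background on 6 arrays only. The cathelicidins PMAP-36, NPG4 and PR39 stood at -0.22, -0.024 and 0.012. The iron-binding lactoferrin (LTF) stood at 0.45. REG3G and PBD-2 thus had lower differences than all 32 listed effectors, as their choice implies, and PBD-1 lay just below PGLYRP1 in hormone horns.

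In placebo horns 6 of the 32 effectors rose and 0 fell, with a median of 0.35, beside 3.65% of named genes that rose, 0.829% that fell and a median of 0.074 over named genes. DMBT1 rose by 3.78 (adjusted p = 0.00945), S100A8 by 4.34 (adjusted p = 0.0457), SAA3 by 4.31 (adjusted p = 0.0312), CHI3L1 by 3.53 (adjusted p = 0.0471), LYZ by 2.66 (adjusted p = 0.026) and the lectin FCN1 by 2.76 (adjusted p = 0.0351). FCN1 stood at 2.05 in hormone horns, where it did not pass (adjusted p = 0.0539). These calls share the control arrays with the contrast that entered the choice of the genes, so they are descriptions too. They also depended on single animals. The count was 0 without gilt 28, 1 without gilt 9, 14, 38 or 41, and 3 without gilt 47, and it was also 0 within each scan day and after averaging both horns of the control gilts. PGLYRP1 stood at -1.48 (adjusted p = 0.124). Between hormone and placebo horns 0 of 32 passed (limma), the list median was 0.17, and 25 of 32 values were above 0. The 3 genes picked here were below 0 in that contrast.

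**Figure D3:**
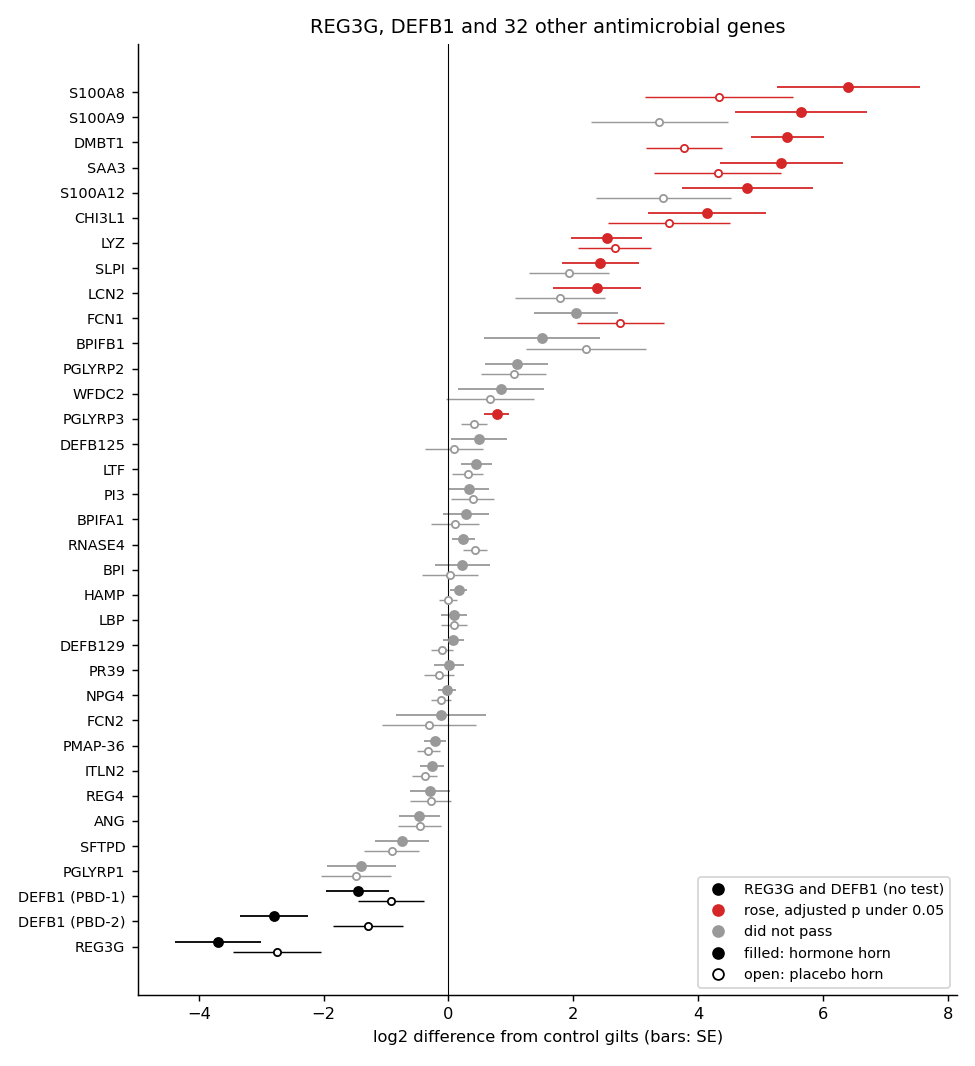
Log2 difference from control gilts (x axis, bars are SE) for 32 listed antimicrobial effectors, REG3G and the 2 DEFB1 records, in hormone horns (filled) and placebo horns (open). Red marks genes that rose (limma, adjusted p under 0.05), grey those that did not pass, and black the genes picked for their low values, which were not tested. Among the filled points the black ones lie furthest left. The open points of both DEFB1 records lie to the right of that of PGLYRP1, and the S100 genes, DMBT1 and SAA3 lie at the right.

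Of the genes of mucus and antibody transport, 4 of 12 listed were measured. In hormone horns 1 of these 4 rose and 0 fell, beside 12.7% of named genes that rose and 2.45% that fell. MUC4, a membrane mucin of the epithelial surface, rose by 2.27 ± 0.51 in hormone horns (limma adjusted p = 0.0106) and passed whichever gilt was left out. High values of mucosal defence genes in this contrast were part of the choice of REG3G and DEFB1, so this rise is a description. In placebo horns it stood at 1.71 (adjusted p = 0.0672). MUC20 stood at 0.75 (adjusted p = 0.211) in hormone horns, PIGR, the receptor that carries IgA across the epithelium, at 0.18 (adjusted p = 0.787) and MUC13 at -0.11 (adjusted p = 0.658).

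Of 30 listed genes of microbial sensing and of the signalling upstream of REG3G and the defensins, 20 were measured. In hormone horns 3 rose and 0 fell, beside 12.7% of named genes that rose and 2.45% that fell. The list median was 0.49, with 19 of 20 values above 0, beside a median of 0.17 over named genes. MYD88, the adaptor of Toll-like receptors, rose by 1.10 (limma adjusted p = 0.0142), the lipopolysaccharide receptor TLR4 by 1.02 (adjusted p = 0.0469) and RELA, a subunit of NF-kB, by 0.61 (adjusted p = 0.015). MYD88 did not pass without gilt 9 or 14, and RELA not without gilt 14 or 28. TLR4 passed in only 2 of the 10 fits that left out a gilt, those without gilt 36 or 41, and it did not pass with quantile normalization or the authors' deposited table. The count for the list was 0 without gilt 14, 1 without gilt 9 or 28, and 0 within each scan day.

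The highest value was that of IL1B, an inflammatory cytokine, at 1.89 (adjusted p = 0.293), and TLR2, a receptor for bacterial lipoproteins, stood at 1.09 (adjusted p = 0.108). The lowest were TLR9 at -0.088, TYK2 at 0.0036 and SOCS3 at 0.0090. STAT3, the factor downstream of IL-22, stood at 0.32 (adjusted p = 0.207). In placebo horns 3 of 20 rose (MYD88 by 1.24, adjusted p = 0.0257; HIF1A by 1.01, adjusted p = 0.035; RELA by 0.69, adjusted p = 0.026), with a median of 0.64, beside 3.65% of named genes that rose and a median of 0.074 over them. This count was 0 without gilt 9, 14, 28 or 38 and 1 without gilt 47. Between hormone and placebo horns 0 of 20 passed (limma), 4 values were above 0 and the median was -0.13. IL22 and its receptor subunit IL22RA1 were not analysed here.

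Of 8 receptors for steroids and prostaglandins, 4 were measured. In hormone horns 1 of these 4 fell and 0 rose, beside 2.45% of named genes that fell and 12.7% that rose. The glucocorticoid receptor gene NR3C1 fell by 0.43 in hormone horns (limma adjusted p = 0.0309), a call that held in 4 of 10 fits with a gilt left out (not without gilt 9, 14, 28, 36, 38 or 41). The estrogen receptor gene ESR1 stood at -0.59 (adjusted p = 0.0647), PGR at 0.32 and PTGER3 at -0.085.

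Among markers of epithelium, the tissue that makes REG3G and beta-defensins elsewhere, 3 of 5 rose in treated gilts and 0 fell. The 5 measured of 9 listed markers (KRT8, EPCAM, CDH1, CLDN3 and CLDN4) were well above background on all arrays. Their median relative to control horns was -0.58 to 0.19 in control horns, 0.39 to 0.68 in placebo horns and 0.35 to 0.90 in hormone horns. In hormone horns EPCAM rose by 0.69 (limma adjusted p = 0.0025), CLDN4 by 1.35 (adjusted p = 0.0146) and CDH1 by 0.95 (adjusted p = 0.0204). KRT8 (-0.33, adjusted p = 0.37) and CLDN3 (0.072, adjusted p = 0.886) did not pass. Over all named genes 12.7% rose in this contrast. EPCAM and CLDN4 passed whichever gilt was left out, whereas CDH1 did not without gilt 14, 28 or 44, and within each scan day 0 of 5 passed. In placebo horns the same 3 genes passed (0.57, 1.53 and 0.95 for EPCAM, CLDN4 and CDH1), beside 3.65% of named genes that rose there. However, 0 of 5 passed in placebo horns without gilt 9, 14 or 28. The part of the epithelial markers in the levels of REG3G and DEFB1 was not tested, and gilt 47 is given as a description. The placebo horn of gilt 47 had the lowest level of its group for all 3 genes. Its epithelial median was 0.46, above the lowest of that group, 0.39 in gilt 41. In contrast, the hormone horn of gilt 47 had the lowest median of its group (0.35) together with the lowest REG3G and PBD-2. Markers of other cells rose in hormone horns as well. Of 4 endothelial markers 3 rose (VWF 0.78, ENG 0.64 and CDH5 0.61), of 5 macrophage and dendritic cell markers 2 (CD14 1.42 and MRC1 0.81) and of 3 stromal markers 1 (COL1A2 0.74). These 6 calls held in 9, 7, 5, 3, 4 and 5 of the 10 fits that left out a gilt, in that order. All 6 were lost without gilt 14, and all but VWF without gilt 9 or 28. The smooth muscle markers CNN1 (0.75) and DES (-0.072) did not pass in hormone horns against control gilts.

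Markers of immune cells also differed between the arrays. Over the 8 markers of T and natural killer cells the median was -0.57 to 0.26 in control horns, 0.15 to 2.48 in placebo horns and -0.16 to 2.61 in hormone horns. For the 5 measured of 8 macrophage and dendritic cell markers the ranges were -0.38 to 0.34, 0.010 to 2.96 and -0.32 to 2.50. Both horns of gilt 47 held the highest value of each list, and they held the lowest REG3G and PBD-2 levels of their groups. Without gilt 47 the differences from control gilts were -3.30 (REG3G), -2.53 (PBD-2) and -1.40 (PBD-1) in hormone horns and -2.02, -0.75 and -0.58 in placebo horns. Of 8 neutrophil markers only TREM1 was measured, which was well above background on 9 arrays only. It stood at 2.65 in hormone horns (limma adjusted p = 0.129) and 3.51 in placebo horns (adjusted p = 0.0794). In gilt 47 it lay 7.67 (placebo horn) and 6.40 (hormone horn) above the control mean. The median of 3 measured B cell markers was -0.20 to 0.43 in control, -0.40 to 3.32 in placebo and -0.31 to 3.07 in hormone horns. Gilt 47 again held the highest value in both kinds of treated horn. Of the 8 T and natural killer cell markers, 7 had values above 0 in hormone horns and did not pass, such as CD3D at 1.05 (limma adjusted p = 0.133), and the list median was 0.59. The other, GZMB, a protease of cytotoxic lymphocytes, fell by 0.94 (limma adjusted p = 0.0105, lost without gilt 28), beside 2.45% of named genes that fell. The part of these markers in the levels of REG3G and DEFB1 was not tested.

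**Figure D4:**
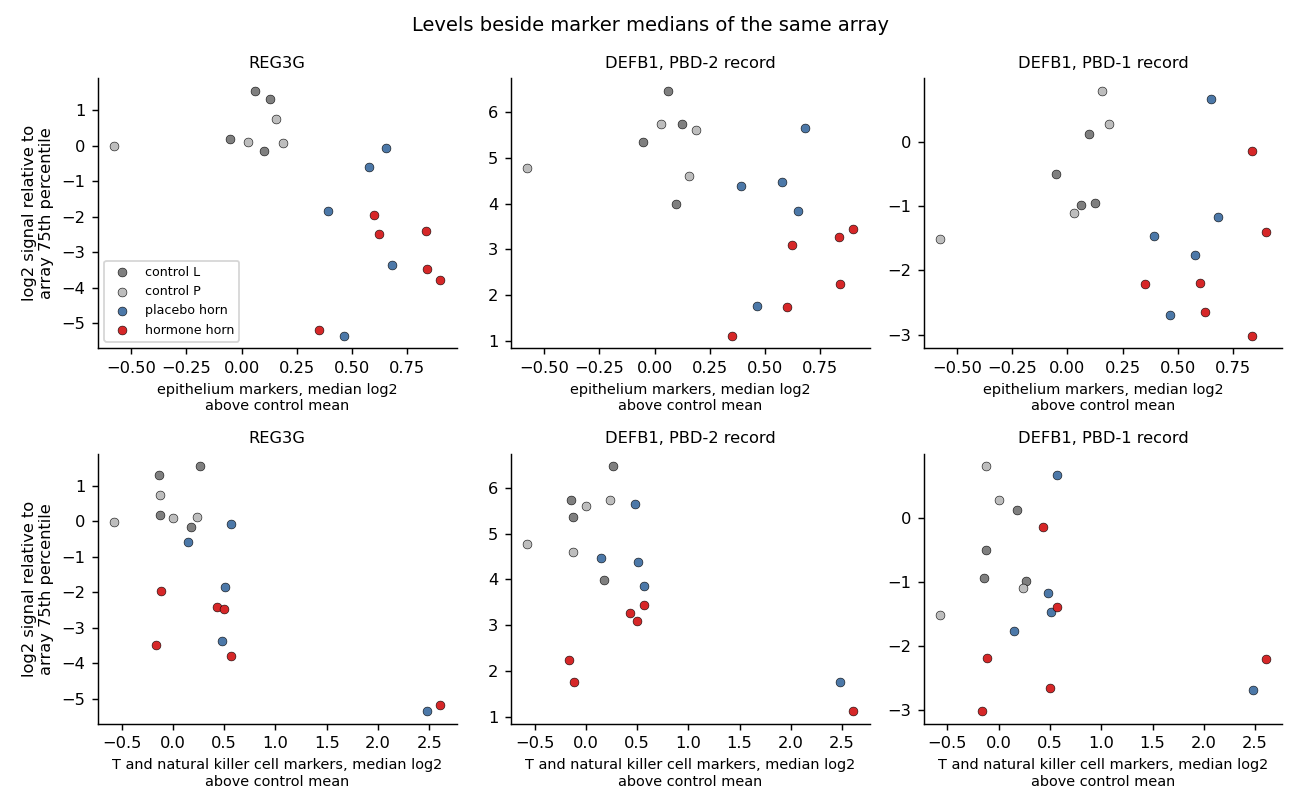
Level of REG3G, PBD-2 and PBD-1 (y axis, log2 relative to the array's 75th percentile) beside the median epithelial marker (upper row) and the median marker of T and natural killer cells (lower row) of the same array (x axis, log2 above the control mean). Points are the 19 arrays, coloured by group. For epithelial markers control horns lie at -0.58 to 0.19, placebo horns at 0.39 to 0.68 and hormone horns at 0.35 to 0.90. The horns of gilt 47 stand apart at 2.48 and 2.61 for T and natural killer cell markers.

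Within the hormone horns the levels of the 3 genes were compared over the 6 gilts. REG3G and PBD-2 correlated with Pearson's r = 0.42 (exact permutation p = 0.39) and Spearman's rho = 0.086 (exact permutation p = 0.919), and r was 0.20 without the 2 gilts farthest from the median on the x axis, gilts 38 and 47. REG3G and PBD-1 had r = 0.18 (exact permutation p = 0.713, rho = 0.26, permutation p = 0.658), and PBD-2 and PBD-1 had r = 0.48 (exact permutation p = 0.351, rho = 0.49, permutation p = 0.356). Without the same 2 gilts r was 0.29 and 0.71 for these pairs. Adjusted over the 3 pairs, the p of r was 0.585, 0.713 and 0.585 in that order. No relation between these genes could be shown with 6 animals.

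Over all 19 arrays the genes whose levels were most like REG3G were EGF, an epithelial growth factor (Pearson's r = 0.94), the taste receptor subunit TAS1R3 (0.89), the mitochondrial carrier SLC25A27 (0.87), LRRC1 (0.86) and TMEM260 (0.86), of 2951 genes compared. The arrays share the group structure, so these values are descriptions with no p. After the group means were taken off, BMPR1A (0.87), PHYH (0.87), EGF (0.86), SH3YL1 (0.85) and FZD3 (0.84) were closest, with EGF in both lists. For PBD-2 the closest levels were those of TCEAL2 (0.89), BAALC (0.87), ACTR8 (0.86), EGF (0.85) and PRPF3 (0.85). Within groups they were TCEAL2 (0.87), UROS (0.85), SPPL3 (0.85), XIRP1 (0.83) and TGS1 (0.82).

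PBD-1 had other neighbours. Its levels were closest to FRRS1 (0.84), CLDN23 (0.82), RGL2 (0.82) and LGI1 (0.82). Within groups the closest were COL1A2 (0.86), C1QTNF6 (0.85), ZPBP (0.85), PGR (0.84) and HBE1 (0.84). By level, EGF was thus among the 5 closest for REG3G and PBD-2 but not for PBD-1, and within groups for REG3G only.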

How the data were processed

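Endometrial RNA of 10 gilts was measured on 19 one-colour Agilent arrays, labelled with Cy3 per the labels' protocols. Each deposited scanner file gives a linear intensity for every spot, background-subtracted and spatially detrended within each array by Agilent Feature Extraction 10.7.3.1, per the file headers (version 9.1 per the submitters' processing notes). The authors' deposited value table is on a log2 scale (medians 7.72 to 7.83 per array; its correlation with log2 of that array's scanner values was 0.996 to 0.999). The way it was normalized and centred was not given in the sources used here. It was used only as an alternative.

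Control spots and outlier-flagged values (1160) were left out, spots of a probe were averaged, and log2 of the processed signal minus log2 of the array's 75th percentile was taken. Of 43603 probes, 39097 were well above background on at least 4 arrays, and 39092 with a value in every group were tested. The fit had a mean for each of the 4 groups and a random block for the gilt (R 4.3.3 with limma 3.58.1 and statmod 1.5.0; eBayes with trend; within-gilt correlation 0.536; two-sided; Benjamini-Hochberg over all probes; threshold 0.05). The control value was the mean of both control groups, L and P. Arrays with the same gilt number come from the same animal, and their deviations from the group means correlated at 0.336 to 0.795 in treated and 0.403 to 0.627 in control gilts. A gilt's horns shared a slide, and 1 of the 9 slides held 2 gilts, so slide and gilt are nearly the same block. The fit was tested on simulated data.

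Symbols came from RefSeq accessions matched without version to the table of Sscrofa11.1: 6876 probes matched 1 gene, 6768 of them with a symbol. A gene was represented by its probe with the highest mean signal, which left 3015 tested genes. The members and gene lists were chosen with earlier results of these data known. Named are all probes of the members, all antimicrobial list members that passed, up to 3 highest and lowest values of the other lists, and the 5 genes most like each member over the arrays, of which 1 is not reported here. REG4, the beta-defensins, the cathelicidins, LTF, PGLYRP1, SFTPD, ANG, STAT3 and the cell type markers were named after their values were seen. Alternatives were background correction, quantile normalization, the authors' table, filters, outlier flags kept, blocks, scan day, the samples in the fit, the mean of both DEFB1 probes, and leaving out each gilt. Normexp on median signals and the fits that leave out gilt 36's hormone horn were added after the data were seen.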

Additional observations from a re-analysis of the deposited data

How the results depend on the processing

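REG3G kept its direction in all alternatives run, from -3.95 to -2.88 log2 units in hormone horns against control gilts (26 alternatives), from -3.28 to -2.02 in placebo horns and from -1.39 to -0.57 between hormone and placebo horns (limma adjusted p 0.295 to 0.988). PBD-2 did so from -3.13 to -1.90 (27 alternatives), -1.69 to -0.51 and -2.01 to -1.02 (adjusted p 0.0713 to 0.988). Genes picked for low values keep their sign easily, so this is a weak check. The value of -2.88 for REG3G in hormone horns was that with normexp on median signals. PBD-1 turned on scan day 1, to 0.46 in hormone and 0.97 in placebo horns, was -2.66 and -2.69 on day 3, and stood at 0.027 between hormone and placebo horns on day 3. With slide in place of gilt as the random block, PBD-1 was -0.63 in hormone and -0.065 in placebo horns, PBD-2 -2.69 and -1.17, and REG3G -3.27 and -2.31. The cause was not tested. With gilt as a fixed replicate block, PBD-2 differed between horns by -1.49 (adjusted p = 0.164), REG3G by -0.92 and PBD-1 by -0.43, and neither this block nor its absence changed the call of a member. With each gilt left out in turn, the differences against control gilts ranged from -3.95 to -3.30 (REG3G), -3.13 to -2.53 (PBD-2) and -1.81 to -1.14 (PBD-1) in hormone horns, and from -3.28 to -2.02, -1.68 to -0.75 and -1.40 to -0.58 in placebo horns. Between hormone and placebo horns they ranged from -1.28 to -0.57, -1.77 to -1.23 and -0.81 to -0.39. Between the P and L horns of control gilts they were -0.96 to -0.18 for REG3G, -0.48 to 0.048 for PBD-2 (above 0 without gilt 9) and -0.0017 to 0.45 for PBD-1 (below 0 without gilt 14), and the mean of both DEFB1 probes was -0.0071. The horn difference of treated against control gilts ranged from -0.74 to 0.037 for REG3G (above 0 without gilt 46), -1.54 to -0.98 for PBD-2 and -0.88 to -0.43 for PBD-1.

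The counts of probes that passed (limma), the background of these values, moved far more. Against control gilts, 6972 passed in hormone and 3570 in placebo horns with no replicate block, 8293 and 5005 with slide as the block, 2493 and 0 (8745 at an unadjusted p under 0.05) with control horns averaged, 14, 366 and 1 against 13, 30 and 0 (3664 unadjusted) within scan days 1, 2 and 3. In placebo horns 14 passed with only the compared groups in the fit, and 429 without gilt 47 and gilt 36's hormone horn. Leaving out 1 gilt gave 1454 to 5283 in hormone horns (1454, 1614, 1753 and 2873 without gilts 14, 28, 9 and 44) and 0 to 3294 in placebo horns (0, 34, 126, 396, 418, 938 and 3294 without gilts 28, 14, 9, 38, 47, 41 and 36). Between hormone and placebo horns 0 passed with normexp (1633 unadjusted), the authors' table (3595) or no block (1147), 34 with quantile normalization, 16 with gilt as a fixed replicate block, 5 with a term for scan day, 4 without the hormone horn of gilt 36, 21 without it and gilt 47, and 0 to 16 with a gilt left out (16 without gilt 47). Within scan days 1, 2 and 3 the same contrast gave 0, 8 and 0 (7984, 3544 and 3870 unadjusted). Between control horns 0 passed with any gilt left out (704 to 1409 unadjusted). The planned normexp on mean signals was not run, since the files used here hold median signals. The number of gilts, 4 to 6 per group, limits the precision of every value.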
